A study of Mus musculus with 6 samples.

Results

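The barcodes described here are tumour neutrophils of the mouse colon that carried transcripts of an interferon response. They were chosen by their own counts. A barcode, which stands for 1 captured cell, was first kept if it had at least 200 detected genes and at most 20% mitochondrial UMIs (unique molecular identifiers, each counting 1 captured RNA molecule). It entered a neutrophil gate if it held at least 3 of Csf3r, Cxcr2, Il1r2, G0s2, Mmp9 and Hdc, at least 5 UMIs of S100a8 and S100a9 together, and no UMI of Cd3e, Cd79a, Epcam, C1qa or Cpa3. A gate barcode was a member if it had fewer than 2 UMIs summed over Hmox1, Gpnmb, Gdf15 and Nceh1 and at least 3 UMIs summed over Ifit1, Ifit2, Ifit3, Oasl2 and Rsad2. This gave 3113 members among 12702 gate barcodes, 50875 kept barcodes and 64505 deposited barcodes. The remaining 9589 gate barcodes are called the others.

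The samples were 6 whole colonic tumours of male mice, 1 library each, in 2 models. The 3 AOM PN tumours carried the genotype VilcreER P53fl/fl Notch1Tg. Per the labels' protocols, these mice received 2 mg tamoxifen into the peritoneum and, from day 4, the carcinogen azoxymethane (AOM) at 10 mg/kg once a week for 6 weeks, and their group label reads Ageing Tumor. The 3 Apc ICI tumours carried VilCreER Apcfl/fl and were started by intracolonic induction, in which 70 µl of 100 µM 4-OH tamoxifen was injected into the submucosa of the colon. In both models the Villin promoter places the tamoxifen-dependent Cre recombinase in the intestinal epithelium, so the labels describe no engineered change in neutrophils, and all mice received a form of tamoxifen. All tumours were taken at clinical endpoint, and sorting removed only dead cells. The mice's ages, and whether the 3 tumours of a model came from 3 animals, are not given in the sources used here, and p-values therefore reflect only how far these samples vary, which may be technical variation.

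Neutrophils are short-lived granulocytes that enter tumours from the blood. Type I interferons bind the receptor chains Ifnar1 and Ifnar2, the kinases Jak1 and Tyk2 activate transcription factors, and these join Irf9 to form a factor that binds the interferon-stimulated response element (ISRE) in promoters. The genes it switches on include the Ifit proteins, which bind foreign RNA and limit its translation, Oasl2 of the oligoadenylate synthetase-like family, and Rsad2 (viperin), an enzyme that makes a chain-terminating nucleotide. A neutrophil state carrying such transcripts is known from blood and tumours of mice and humans.

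Library totals were 87107277 to 98583066 UMIs in the AOM PN libraries and 59309093 to 60075436 in the Apc ICI libraries, so these totals separated the models. The number of deposited barcodes did so too, at 11196 to 16137 in AOM PN and 6873 to 9097 in Apc ICI. The totals are summed over those barcodes and do not measure sequencing depth. No batch label was available to split the libraries further. Between any pair of libraries, 10 to 52 barcode sequences were shared, at most 0.508% of the smaller library, and 2 members occurred as members in another library. Among the Apc ICI libraries, replicate 2 stood apart by its many members and high interferon levels. Intervals on shares cover counting error only.

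Members made up a smaller part of the neutrophil gate in AOM PN than in Apc ICI tumours. The counts were 217 of 2193, 514 of 3632 and 111 of 2435 gate barcodes in AOM PN 1, 2 and 3, against 406 of 972, 1449 of 2538 and 416 of 932 in Apc ICI 1, 2 and 3. As shares these were 9.90% (95% Wilson interval 8.71 to 11.2), 14.2% (13.1 to 15.3) and 4.56% (3.80 to 5.46) in AOM PN, against 41.8% (38.7 to 44.9), 57.1% (55.2 to 59.0) and 44.6% (41.5 to 47.8) in Apc ICI. The groups did not overlap: the highest AOM PN tumour lay below the lowest Apc ICI tumour. The mean was 9.54% ± 4.81 in AOM PN and 47.8% ± 8.15 in Apc ICI (SD, n = 3 each), a difference of -38.3 percentage points. The two-sided exact permutation p was 0.1, the smallest that 3 against 3 samples can give. Without Apc ICI 2 the difference was -33.7 percentage points. Among gate barcodes with fewer than 2 UMIs of the 4 Hmox1-type genes, the only ones that could be members, the share was 10.5%, 15.7% and 4.72% in AOM PN tumours, against 59.9%, 80.7% and 54.1% in Apc ICI tumours.

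The difference does not rest on the cut of 3 UMIs. The 5 genes together took 254, 400.3 and 158 UPM (UMIs per 1000000 UMIs of the same barcodes) over all gate barcodes of AOM PN 1, 2 and 3, against 1982, 5129 and 1491 UPM in Apc ICI 1, 2 and 3. The means were 271 ± 122 UPM in AOM PN and 2867 ± 1974 UPM in Apc ICI (SD, n = 3 each), and the Apc ICI mean was 10.6 times the AOM PN mean (two-sided exact permutation p = 0.1). Apc ICI 2 carried much of this gap: without it the difference was -1466 UPM, where it was -2597 UPM with all 6 libraries, and the Apc ICI mean was 6.41 times the AOM PN mean. These sums cannot tell fewer responding cells apart from less RNA in each. Depth per barcode overlapped between the models: median UMIs of members were 3982, 4385 and 3030 in AOM PN and 3699, 2954 and 3518 in Apc ICI. Median UMIs of others were 3177, 3502 and 2759 in AOM PN and 4123, 3575 and 3242 in Apc ICI. Members were thus deeper than others in each AOM PN library and in Apc ICI 3, and shallower in Apc ICI 1 and 2. After every gate barcode was thinned to 1000 UMIs, which left out 26 to 51 shallower barcodes in the AOM PN and 11 to 33 in the Apc ICI libraries, the expected share past the cut was 2.46%, 3.94% and 1.39% in AOM PN tumours, against 21.1%, 47.1% and 20.5% in Apc ICI tumours.

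**Figure D1:**
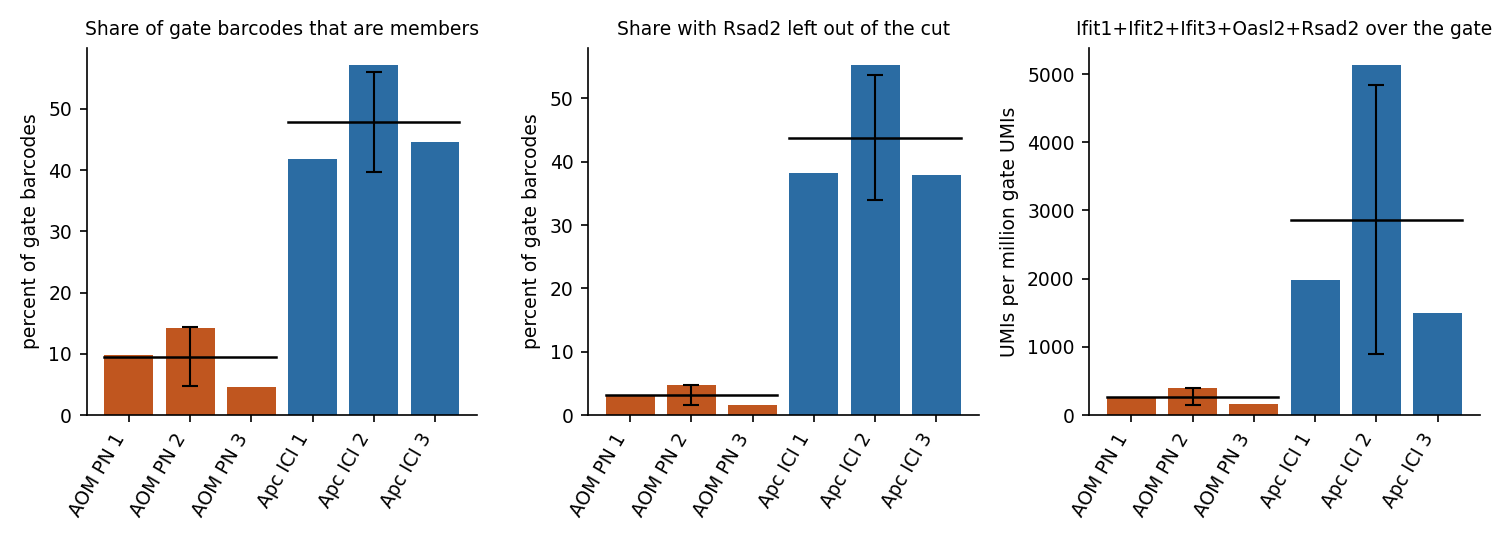
Bars give each library's share of gate barcodes that are members (left), the same share with Rsad2 left out of the cut (middle), both in percent, and the summed level of the 5 interferon genes over all gate barcodes in UPM (right). AOM PN libraries are orange and Apc ICI libraries blue, the horizontal line is the group mean and the whisker 1 SD (n = 3). The 3 AOM PN bars (4.56% to 14.2% in the left panel) all lie below the 3 Apc ICI bars (41.8% to 57.1%).

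Barcodes outside the gate were held to the same cut. Each kind below was limited to kept barcodes with fewer than 5 UMIs of S100a8 and S100a9 together. Epcam, Cd3e and C1qa barcodes held that gene and no other of Cd3e, Cd79a, Epcam, C1qa and Cpa3. Barcodes rich in haemoglobin held none of these. The S100 limit leaves out barcodes with more S100a8 and S100a9 RNA, free RNA included. The shares therefore do not give how often free RNA reaches the cut. Among kept barcodes with Epcam, a marker of epithelium, 3.87%, 3.64% and 1.15% had at least 3 UMIs of the 5 genes in AOM PN (median depth 2176 to 2246 UMIs), against 17.8%, 8.98% and 23.5% in Apc ICI (median depth 5881 to 11075 UMIs). Among T-cell barcodes with Cd3e the share was 0.855% to 3.65% in AOM PN and 4.71% to 10.96% in Apc ICI. It was 1.08% to 6.74% in AOM PN and 6.78% to 15.9% in Apc ICI among macrophage barcodes with C1qa. In every library the gate's own share at this cut, taken before the Hmox1-type condition, was above that of these 3 kinds, with 10.6%, 16.6% and 4.85% in AOM PN (median depth 2774 to 3589 UMIs) and 58.3%, 74.5% and 50.2% in Apc ICI (median depth 3187 to 3890 UMIs). After thinning to 1000 UMIs, at least 1 UMI of the 5 genes was expected in 12.8%, 16.9% and 8.02% of AOM PN gate barcodes, against 56.5%, 76.4% and 53.4% of Apc ICI gate barcodes. The Epcam barcodes had 4.62%, 4.56% and 1.68% in AOM PN and 10.9%, 8.76% and 16.9% in Apc ICI on the same terms. Barcodes with over 50% haemoglobin UMIs, which mark red blood cells, reached the cut more often than the AOM PN gate did, in 28.0%, 46.7% and 25.6% in AOM PN (median depth 6384 to 15333 UMIs) and 62.6%, 49.0% and 74.4% in Apc ICI (median depth 11128 to 14731.5 UMIs). After thinning to 1000 UMIs, 23.3%, 18.9% and 18.2% of them in AOM PN were expected to hold at least 1 UMI of the 5 genes. These shares were above those of the AOM PN gate in each library. In Apc ICI they were 35.6%, 28.3% and 45.0%, below those of the gate. The signal of the haemoglobin-rich barcodes was mostly Rsad2, at 229 to 327 UPM in AOM PN and 391 to 760.1 UPM in Apc ICI, whereas Ifit3 had no UMI in the 3 AOM PN libraries and 0.272 to 5.52 UPM in Apc ICI.

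The make-up of the 5-gene signal differed between the models, and Rsad2 was the gene that set it apart. Rsad2 made up 69.7%, 69.1% and 66.1% of the members' 5-gene UMIs in AOM PN 1, 2 and 3, against 29.7%, 32.7% and 33.1% in Apc ICI 1, 2 and 3. Within AOM PN, 39.2%, 41.6% and 42.3% of members carried Rsad2 and none of the other 4 genes, against 0.739%, 0.138% and 2.88% in Apc ICI. The groups are far apart on both measures, with every AOM PN tumour above every Apc ICI tumour. Oasl2 was found in 16.6%, 26.5% and 39.6% of AOM PN members, against 97.3%, 96.0% and 90.6% of Apc ICI members. All 5 genes were found together in 0.461%, 1.17% and 5.41% of AOM PN members, against 16.7%, 40.6% and 8.41% of Apc ICI members. The median member held 5, 6 and 5 UMIs of the 5 genes in AOM PN and 9, 20 and 8 in Apc ICI. Since these genes chose the members, their levels are given as a description.

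Rsad2 itself stood at 1265, 1140.5 and 1161 CPM (counts per 1000000, scaled by the effective library size) in AOM PN members, against 963, 2709 and 1208 CPM in Apc ICI members, and 2 of the 3 Apc ICI libraries lay within or near the AOM PN range. Ifit1 was at 270.2, 245 and 206 CPM in AOM PN members, against 512, 1424 and 607 CPM in Apc ICI members. Ifit3 was at 192, 158 and 156 CPM in AOM PN members, against 713, 1994 and 777 CPM in Apc ICI members. All 3 Apc ICI libraries were above all 3 AOM PN libraries for both Ifit genes, and the gap was wider for Ifit3. Oasl2 was at 49.6, 82.7 and 158 CPM in AOM PN members, against 917, 1572 and 963 CPM in Apc ICI members. Ifit2, the least abundant, was at 36.9, 23.5 and 73.3 CPM in AOM PN members, against 141, 582 and 96.8 CPM in Apc ICI members. Oasl2 thus had the widest gap between models among the members, and Rsad2 the narrowest.

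With Rsad2 left out, so that at least 3 UMIs of Ifit1, Ifit2, Ifit3 and Oasl2 were needed, a setting chosen after seeing the data, 3.01%, 4.76% and 1.60% of gate barcodes passed in AOM PN tumours, against 38.3%, 55.2% and 37.9% in Apc ICI tumours. That kept 66, 173 and 39 AOM PN members, against 372, 1401 and 353 Apc ICI members. The Apc ICI mean was then 14.0 times the AOM PN mean, where it was 5.02 times with all 5 genes. AOM PN members with Rsad2 alone, 85, 214 and 47 barcodes, held the antiviral genes outside the rule at 4912, 6115 and 6095 UPM, against 3726, 3944 and 2844 UPM in the others of the same libraries. With at most 5% haemoglobin UMIs required of both parts, the level was 6286, 7279.6 and 6575 UPM in the Rsad2-only members, against 3875, 4135 and 2851 UPM in the others. The members of each AOM PN library were above its others on either count, by the least in AOM PN 1.

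**Figure D2:**
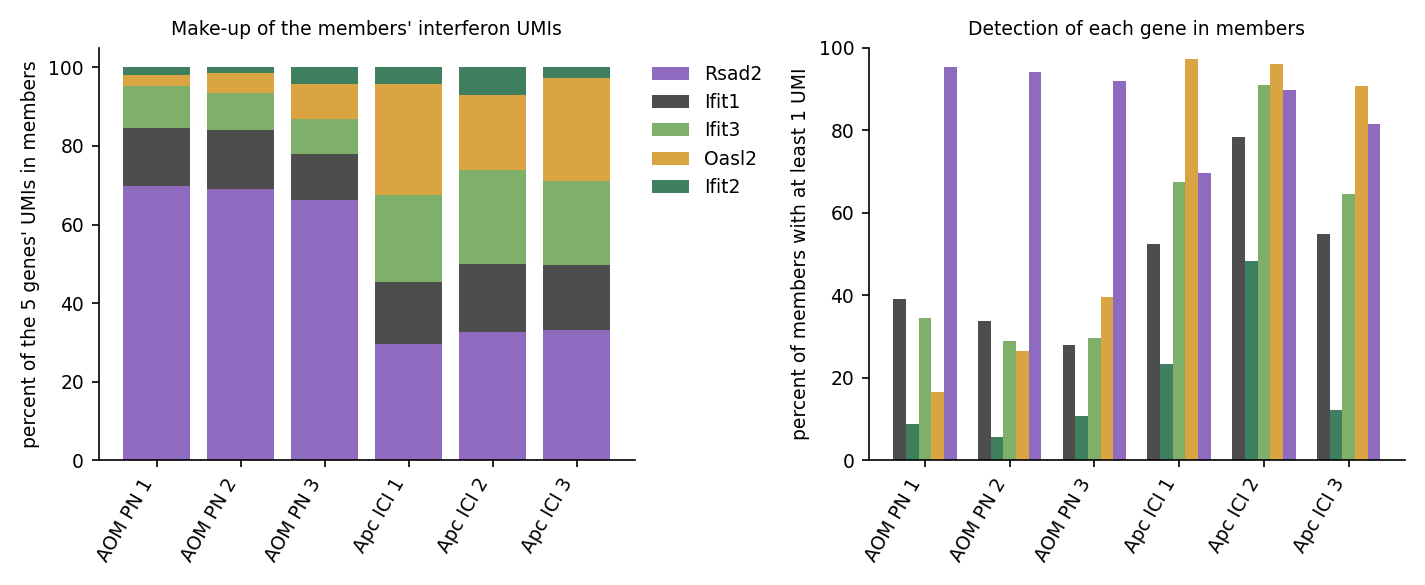
Stacked bars give the share of each rule gene in the members' 5-gene UMIs by library (left), and grouped bars the percent of members with at least 1 UMI of each gene (right). Rsad2 fills 66.1% to 69.7% of the stack in the 3 AOM PN libraries and 29.7% to 33.1% in the 3 Apc ICI libraries, and Oasl2 is detected in 16.6% to 39.6% of AOM PN members and 90.6% to 97.3% of Apc ICI members.

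Over all gate barcodes, where the interferon cut plays no part, all 5 genes were lower in AOM PN. The same UMIs counted toward the cut for members, and the members were chosen with earlier results of these data known. The values of these 5 genes are therefore no separate support for the difference in shares. The comparison used edgeR's quasi-likelihood test on UMIs summed per library with Benjamini-Hochberg adjustment. The log2 fold change was -4.86 (SE 0.74, adjusted p = 0.00916) for Ifit2, -4.83 (SE 0.38) for Oasl2, -4.59 (SE 0.60) for Ifit3, -3.55 (SE 0.58) for Ifit1 and -2.31 (SE 0.51, adjusted p = 0.0304) for Rsad2. In that test 6.9% of 9281 genes were called, 216 higher (2.33%) and 424 lower (4.57%) in AOM PN. Of 40 tested antiviral effectors, 13 fell and none rose, with a median log2 fold change of -1.17, beside -0.02 over all genes tested, and DESeq2 called 24 lower. Isg15, a ubiquitin-like protein that is conjugated to other proteins, was at 1120.3, 1212 and 586 CPM over the gate in AOM PN, against 2551, 6723 and 3123 CPM in Apc ICI, a log2 fold change of -2.09 (SE 0.41, adjusted p = 0.0242). Isg15 was no longer called without AOM PN 3 (-1.81) or Apc ICI 2 (-1.54), nor was Rsad2 without AOM PN 1 (-2.36), AOM PN 3 (-1.97) or Apc ICI 2 (-1.60). The counts of called genes depended on each library, at 30 higher and 98 lower without Apc ICI 2, 85 and 219 without Apc ICI 1, 116 and 258 without AOM PN 1, 130 and 246 without AOM PN 2, and 83 and 175 without AOM PN 3.

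Promoter windows of 4 genes are shown as examples that differ in the element that interferon-activated factors bind. Any link of this element to the gap between the models was not tested. Each window runs from 250 bases before to 50 bases after a transcription start, from RefSeq on GRCm38.p6, written 5′ to 3′ on the gene's strand. Capitals mark the ISRE core GAAANNGAAA on either strand. Ifit3 lies at chr19:34583279-34583578 on the plus strand, Rsad2 at chr12:26456403-26456702 on the minus strand, Isg15 at chr4:156200769-156201068 on the minus strand and Oasl2 at chr5:114896684-114896983 on the plus strand.
Ifit3: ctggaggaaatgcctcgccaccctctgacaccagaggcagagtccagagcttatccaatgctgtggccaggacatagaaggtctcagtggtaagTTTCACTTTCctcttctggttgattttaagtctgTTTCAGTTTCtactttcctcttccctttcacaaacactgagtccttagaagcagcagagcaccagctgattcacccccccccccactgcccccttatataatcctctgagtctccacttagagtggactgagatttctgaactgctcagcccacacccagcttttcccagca
Rsad2: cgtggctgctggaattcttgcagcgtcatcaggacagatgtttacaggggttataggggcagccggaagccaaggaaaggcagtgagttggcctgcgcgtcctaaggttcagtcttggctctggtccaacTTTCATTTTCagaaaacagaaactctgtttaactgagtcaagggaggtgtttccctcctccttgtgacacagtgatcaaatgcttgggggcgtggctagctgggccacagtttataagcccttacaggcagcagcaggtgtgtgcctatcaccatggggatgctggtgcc
Isg15: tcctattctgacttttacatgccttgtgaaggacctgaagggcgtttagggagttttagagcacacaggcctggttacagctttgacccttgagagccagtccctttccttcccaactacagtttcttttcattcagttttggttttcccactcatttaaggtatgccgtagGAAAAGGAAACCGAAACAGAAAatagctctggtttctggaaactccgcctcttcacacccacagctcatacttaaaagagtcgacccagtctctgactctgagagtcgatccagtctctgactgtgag
Oasl2: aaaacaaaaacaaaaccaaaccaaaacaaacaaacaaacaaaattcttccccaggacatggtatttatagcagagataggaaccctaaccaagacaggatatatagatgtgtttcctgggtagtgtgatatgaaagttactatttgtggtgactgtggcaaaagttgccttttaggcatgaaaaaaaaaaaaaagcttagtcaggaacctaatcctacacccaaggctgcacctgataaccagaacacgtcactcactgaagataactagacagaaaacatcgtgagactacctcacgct
Ifit3 holds 2 cores, at positions -156 and -122 from the transcription start, Rsad2 holds 1 at -120, and Isg15 holds 3 at -78, -72 and -66 that overlap in 1 run. The Oasl2 window holds no such letters, which says nothing of other elements or other windows. Of the rule genes not shown, Ifit1 holds 2 cores, at -104 and -85, and the windows of Ifit2 hold none. The core occurred in 3.44% of all 32851 promoter windows, in 3.99% of the 27025 genes they belong to and in 4.44% of the 6380 tested genes that had a window. Among genes higher in members over both models, 213 of 266 had a window, and 29.6% of those held the core, as did 39.6% of the 111 matched genes higher in members within AOM PN and 8.72% of the 1216 matched within Apc ICI. Among genes lower in members over both models the share was 3.47% of 202. The core of the STAT dimer site (TTCNNNGAA) was in 9.55% of all genes with a window, 8.34% of tested genes and 14.1% of those higher in members over both models. It was in 15.3% of the genes higher in members within AOM PN, 9.95% of those within Apc ICI and 4.46% of genes lower in members over both models. A match is a description of the letters and not a site.

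The level of the antiviral genes that the rule did not use was higher at the upper than at the lower end of the 5-gene sum in every library. It did not go up at each step: it was lower at 3 than at 2 UMIs in AOM PN 1, and lower at 4 to 5 than at 3 UMIs in AOM PN 3 (5490 against 5928 UPM) and Apc ICI 3 (8759 against 9414 UPM). Barcodes with none of the 5 genes held them at 3357, 3289.7 and 2584 UPM in AOM PN and 4490.5, 3314 and 4129.7 in Apc ICI, so the models began at levels that overlapped. In barcodes with over 10 UMIs of the 5 genes the level was 10694, 11421 and 14073 in AOM PN and 24232, 33777 and 18239.7 in Apc ICI. At the threshold, barcodes with 3 UMIs stood at 5609, 6502 and 5928 UPM in AOM PN, against 5742, 5496 and 5443 for those with 2. In Apc ICI, barcodes with 3 UMIs stood at 8641, 14161 and 9414, against 8640.5, 10807 and 8643 for those with 2. The cut of 3 therefore falls within a gradient and not at a gap.

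**Figure D3:**
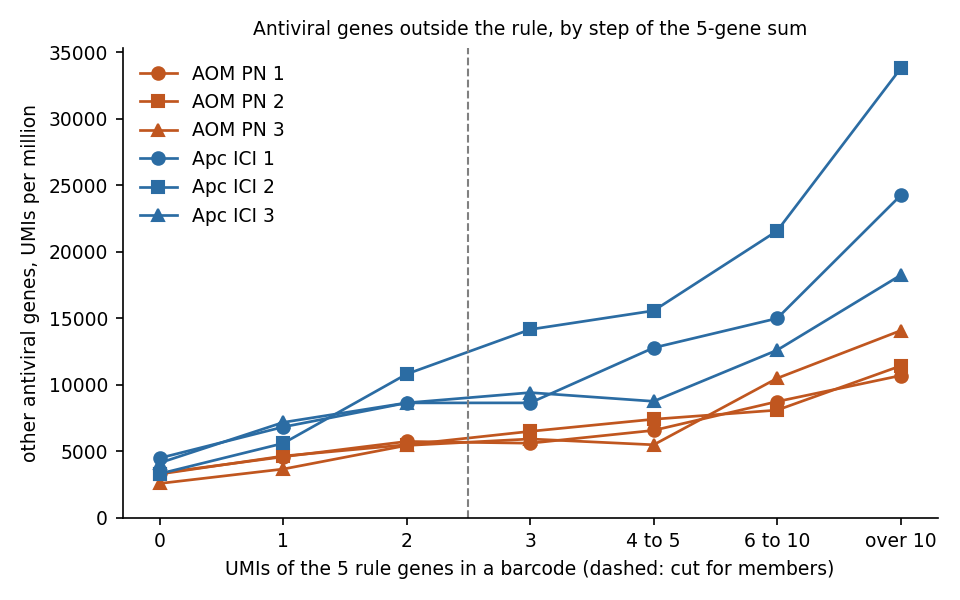
Points give the summed level of the antiviral genes outside the rule, in UPM, for gate barcodes grouped by their 5-gene sum, with 1 line per library (AOM PN orange, Apc ICI blue). The dashed line marks the cut for members. All lines end above their start, at 2584 to 4490.5 UPM for a sum of 0 and between 10694 and 33777 at sums over 10.

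Members were then set against the others gene by gene. Because the rule picked both parts in the same barcodes, the genes that follow describe what went along with the 5 rule genes, and no weight is put on how many were called. With the library as a block over both models, 6.28% of 8139 genes were called (edgeR, adjusted p under 0.05), 266 higher (3.27%) and 245 lower (3.01%) in members. The counts were 592 and 550 without AOM PN 2, 146 and 32 without Apc ICI 1, 135 and 22 without Apc ICI 2, and 132 and 40 without Apc ICI 3. Estimates per model, chosen after seeing the data, called 1.83% of genes in AOM PN, 138 higher (1.7%) and 11 lower (0.135%), and 35.2% in Apc ICI, 1589 higher (19.5%) and 1272 lower (15.6%). These shares are the background for each list count within a model that follows. The number lower changed with single libraries: in AOM PN it was 5 without AOM PN 1, 2 without AOM PN 3 and 18 without Apc ICI 3, which enters through the shared fit, and in Apc ICI it was 654 without Apc ICI 2. Of the 138 genes higher in AOM PN members, 119 (86.2%) were also among the 1589 higher in Apc ICI members, where they made up 7.49%. One feature of the rule differs between models: the others that failed the Hmox1-type condition were 6.63%, 11.6% and 3.53% in AOM PN tumours, against 51.9%, 68.2% and 31.6% in Apc ICI tumours. Some of these others also met the interferon cut of 3 UMIs. They were 15 of 1976, 88 of 3118 and 7 of 2324 others in AOM PN 1, 2 and 3. In Apc ICI 1, 2 and 3 they were 161 of 566, 443 of 1089 and 52 of 516. The others are thus not free of interferon transcripts, least so in Apc ICI. Values with others limited to fewer than 2 UMIs of the 4 Hmox1-type genes are given where they change a call or a sign.

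Antiviral effectors outside the rule were higher in members of both models. Of 44 listed, 40 were measured well enough to test, and 31 were higher within AOM PN (median log2 fold change 1.39) and 36 within Apc ICI (1.69), with none lower, beside medians of -0.03 and -0.04 over all tested genes. Isg15 had 2839, 2653 and 2187 CPM in AOM PN members, against 859.6, 869 and 477 CPM in AOM PN others, a log2 fold change of 1.84 (SE 0.11). In Apc ICI, Isg15 had 4812, 11475 and 5668 CPM in members, against 1396, 2953 and 1378 CPM in others, a log2 fold change of 1.93 (SE 0.11). Members were above others in all 6 libraries, and the others of Apc ICI 2 reached the level of AOM PN members. Of those 1089 others, 443 met the interferon cut and failed the Hmox1-type condition. Ifi27l2a, a small mitochondrial membrane protein induced by interferon, had 1397, 1043 and 1141 CPM in AOM PN members, against 805, 478 and 318 CPM in others. In Apc ICI, Ifi27l2a had 5695, 9931 and 6208 CPM in members, against 1749, 2910.4 and 2109 CPM in others. Here every Apc ICI group of others, barcodes past the interferon cut included, exceeded every AOM PN group of members. Cmpk2, a mitochondrial nucleotide kinase and neighbour of Rsad2 in the genome, had a log2 fold change of 3.68 (SE 0.23) in AOM PN and 2.58 (SE 0.21) in Apc ICI. Ifit3b had the highest fold change of the called, well-measured genes in each model, but it is a close copy of the rule gene Ifit3 and may share its reads. The uncalled effectors included Trim25, at 82.3, 103 and 105 CPM in AOM PN members, against 88.7, 79.2 and 69.97 CPM in others.

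**Figure D4:**
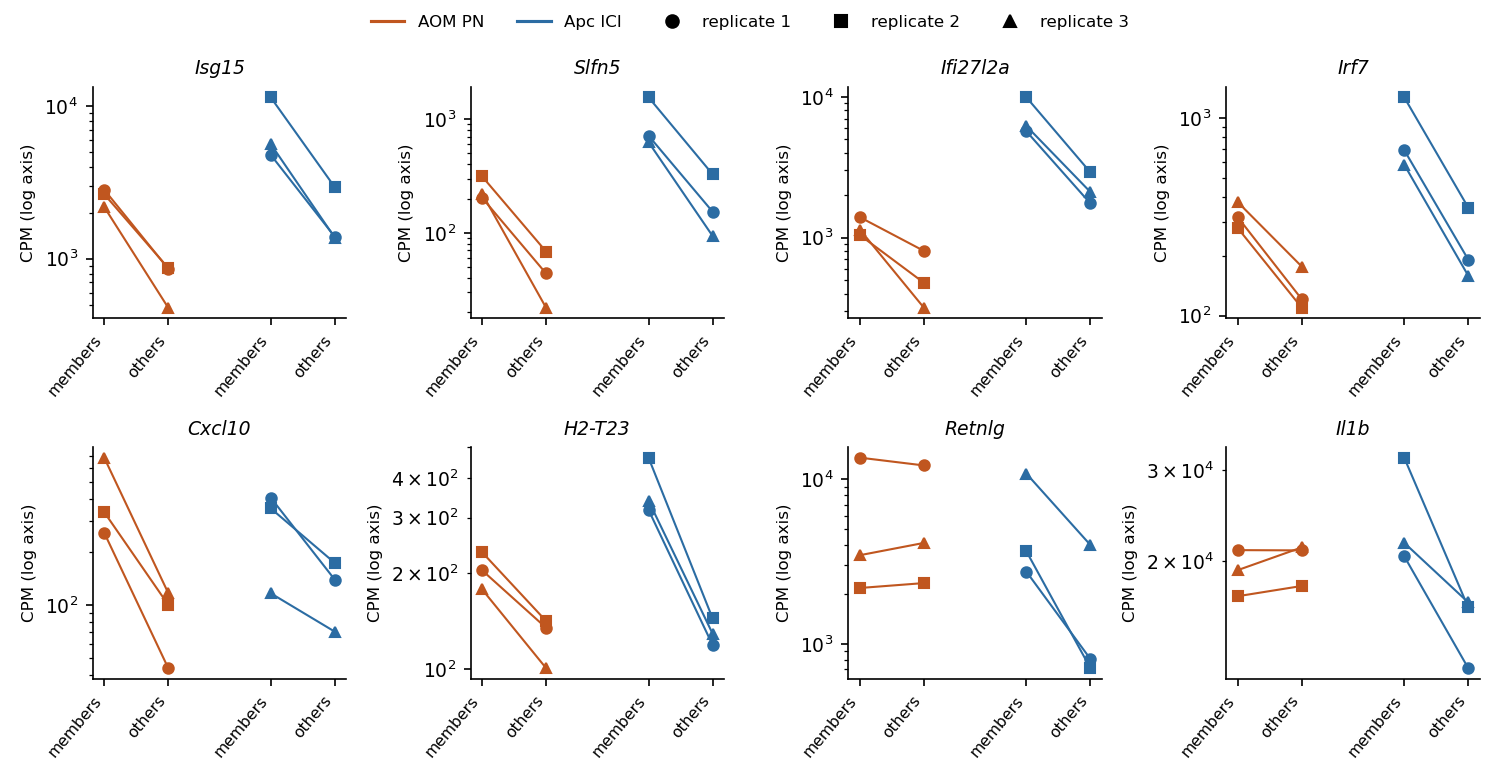
Each panel plots 1 gene's CPM on a log axis in members and in others, joined by a line per library, with AOM PN (orange) left of Apc ICI (blue) and the replicate shown by the symbol. Isg15, Slfn5, Ifi27l2a, Irf7, Cxcl10 and H2-T23 are higher in members in all 6 libraries, whereas Retnlg and Il1b are higher in members in the 3 Apc ICI libraries and lie close in members and others in AOM PN.

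The enzymes that attach and remove Isg15 were mostly higher in members as well. The list of 5 genes holds Isg15 itself and 4 enzymes. Of the 4 enzymes, 3 were higher in AOM PN members, where the activating enzyme Uba7 was not called (0.98, SE 0.27), and all 4 were higher in Apc ICI members. Herc6, the mouse ligase for Isg15, had a log2 fold change of 2.52 (SE 0.24) in AOM PN and 2.55 (SE 0.19) in Apc ICI. Usp18, which removes Isg15 and dampens receptor signalling, stood at 24.3, 26.6 and 25.7 CPM in AOM PN members, against 4.04, 4.24 and 2.37 CPM in others, and at 65.3, 162 and 76.8 CPM in Apc ICI members, against 16.9, 52.3 and 18.2 CPM in others.

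Schlafen genes, a family that is induced by interferon and restricts growth and virus replication, were higher for 5 of 7 in AOM PN members (median 1.86) and for all 7 in Apc ICI members (median 1.92). With low-Hmox1 others these were 3 and 6 of the 6 tested. Slfn5 had 204, 314 and 222 CPM in AOM PN members, against 43.9, 68.4 and 21.9 CPM in others, a log2 fold change of 2.49 (SE 0.16). In Apc ICI, Slfn5 had 716, 1559.6 and 628 CPM in members, against 154, 328 and 93.9 CPM in others, a log2 fold change of 2.38 (SE 0.15). The members of each library were well above its others. Slfn4, the most abundant Schlafen gene after Slfn2 in AOM PN members, had a log2 fold change of 1.36 (SE 0.10) in AOM PN and 1.57 (SE 0.10) in Apc ICI.

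Guanylate-binding proteins and immunity-related GTPases attack the vacuoles of intracellular microbes. Of 18 listed, 10 were tested, and 9 were higher in members of each model, with medians of 1.42 in AOM PN and 1.83 in Apc ICI. Gbp2 had 216, 206 and 236 CPM in AOM PN members, against 60.3, 86.99 and 82.9 CPM in others, and 257, 443 and 174 CPM in Apc ICI members, against 62.3, 94.99 and 40.9 CPM in others. The levels of Gbp2 in the 2 models overlapped in both parts of the gate. Ifi47 and Gbp7 had log2 fold changes of 2.18 and 1.32 in AOM PN and of 2.25 and 2.34 in Apc ICI.

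Sensors of foreign or misplaced nucleic acid were higher for 5 of 9 tested in each model. Ifih1, the sensor of long double-stranded RNA, had log2 fold changes of 2.08 in AOM PN and 2.46 in Apc ICI, and Ddx58 (RIG-I), which senses RNA ends, of 1.63 in AOM PN and 2.08 in Apc ICI. Zbp1, a sensor of Z-form nucleic acid that can trigger cell death, stood at 156, 108 and 158 CPM in AOM PN members, against 58.9, 33.2 and 35.99 CPM in others. In Apc ICI it stood at 319, 661 and 375 CPM in members, against 80.3, 147 and 74.2 CPM in others. Aim2, the DNA sensor that builds an inflammasome, was the exception: it was lower in Apc ICI members (-1.06, SE 0.16) and was not called in AOM PN, at 11.6, 22.9 and 15.8 CPM in members, against 16.02, 19.3 and 21.8 CPM in others. Other genes of its PYHIN family were higher, 6 of 11 in AOM PN and 8 of 11 in Apc ICI, where Ifi205 was lower along with Aim2. Ifi204 had log2 fold changes of 1.81 (SE 0.12) in AOM PN and 1.67 (SE 0.11) in Apc ICI. PYHIN and Schlafen genes have close copies, so reads may be split between them.

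Of 22 genes listed for interferon receptors and signalling, 7 were higher in AOM PN members and 12 in Apc ICI members, and none was lower, so 15 and 10 were not called. Ifnar1 had 98.2, 98.9 and 93.1 CPM in AOM PN members, against 98.4, 101 and 87.3 CPM in others, and 96.6, 83.7 and 79.1 CPM in Apc ICI members, against 98.03, 82.2 and 93.9 CPM in others. These 12 values all lay between 79.1 and 101 CPM, and neither Ifnar1 nor Ifnar2, the type I receptor chains, was called in either model. Ifngr1, a chain of the receptor for interferon gamma, passed narrowly in Apc ICI (0.29, SE 0.11, adjusted p = 0.049) and was not called with any 1 of the 6 libraries left out (0.21 to 0.36). Stat2, which transmits the type I signal, had log2 fold changes of 1.58 (SE 0.22) in AOM PN and 1.86 (SE 0.19) in Apc ICI. Irf7, the factor that amplifies type I interferon responses, had 316, 278 and 376 CPM in AOM PN members, against 121, 109.7 and 177 CPM in others, a log2 fold change of 1.28 (SE 0.10). In Apc ICI, Irf7 had 691, 1279 and 583 CPM in members, against 193, 353 and 159.5 CPM in others, a log2 fold change of 1.86 (SE 0.10). The step of Irf7 from others to members was wider in Apc ICI by the interaction test given further on.

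Genes of MHC class I presentation, which load peptides for CD8 T cells, were higher by smaller amounts, 8 of 18 in AOM PN members (median 0.60) and 13 of 18 in Apc ICI members (median 0.64). With low-Hmox1 others 4 were called in AOM PN. H2-T23 (Qa-1), a nonclassical class I molecule, had 205, 234 and 178 CPM in AOM PN members, against 135, 142 and 101 CPM in others, and 318, 464 and 339.5 CPM in Apc ICI members, against 119, 144 and 129 CPM in others. The others of the 2 models overlapped for H2-T23, and the Apc ICI members lay above the AOM PN members. H2-T24 had log2 fold changes of 1.36 and 2.21 in AOM PN and Apc ICI, the transporter Tap1 of 1.10 and 0.99, and the immunoproteasome subunit Psmb9 of 0.75 and 1.41. The class I genes are near copies of each other, so their counts may share reads.

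Of 4 Ifitm genes, which block virus entry at membranes, 1 was higher in AOM PN members and all 4 in Apc ICI members. Ifitm3 had log2 fold changes of 0.91 (SE 0.10) in AOM PN and 1.65 (SE 0.10) in Apc ICI, with 0.99 and no call in AOM PN with low-Hmox1 others. Ifitm6 had 487, 133 and 255 CPM in AOM PN members, against 393, 114 and 171 CPM in others, and 238, 328 and 497 CPM in Apc ICI members, against 65.7, 75.9 and 133 CPM in others. Members were above others in all 6 libraries, and the interaction of part and model, described further on, was -1.61 (SE 0.15).

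Among secreted and surface signals the picture was mixed. Of 14 tested chemokines, 2 were higher and 1 lower in AOM PN members, and 4 were higher and 4 lower in Apc ICI members. Beside the 19.5% higher and 15.6% lower among all genes tested in Apc ICI, those 4 and 4 are not far from the background. With low-Hmox1 others these were 1 and 0 of 12 in AOM PN and 5 and 1 of 12 in Apc ICI. Cxcl10, an interferon-induced attractant of T cells, had 258, 337 and 687 CPM in AOM PN members, against 43.9, 100.4 and 117 CPM in others, a log2 fold change of 2.25 (SE 0.15). In Apc ICI, Cxcl10 had 408, 354 and 117 CPM in members, against 139.6, 174 and 70.7 CPM in others, a log2 fold change of 1.14 (SE 0.15) that became 2.77 with low-Hmox1 others. Cxcl10 in members was highest in AOM PN 3 and lowest in Apc ICI 3, so its level did not follow the other interferon genes. Ccl3, an attractant of monocytes and neutrophils, was lower in members of both models, with log2 fold changes of -0.55 (SE 0.12) in AOM PN and -1.15 (SE 0.11) in Apc ICI, where the sign turned to 0.12 with low-Hmox1 others. Tnf, an inflammatory cytokine, had log2 fold changes of -0.50 (SE 0.12) in AOM PN and -1.54 (SE 0.11) in Apc ICI. Within AOM PN the calls of Tnf and Ccl3 did not last: Tnf was not called without AOM PN 1 (-0.58), 2 (-0.35) or 3 (-0.54), Ccl3 not without AOM PN 1 (-0.48) or 3 (-0.46), and neither with low-Hmox1 others. Cd274 (PD-L1), an inhibitor of T cells, was at 142, 229 and 248 CPM in AOM PN members, against 118, 175 and 202 CPM in others, and was not called. In Apc ICI it was at 312, 427 and 169.8 CPM in members, against 389.5, 448 and 253 CPM in others, with a log2 fold change of -0.30 (SE 0.10) that turned to 0.55 with low-Hmox1 others and was not called without Apc ICI 1 (-0.30) or 3 (-0.18). Most Ccl5 UMIs of the members of Apc ICI 1 came from 2 barcodes, 270 of 283, so Ccl5 is not described further. Lgals9 was higher in members of both models (0.98 and 1.09 in AOM PN and Apc ICI).

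**Figure D5:**
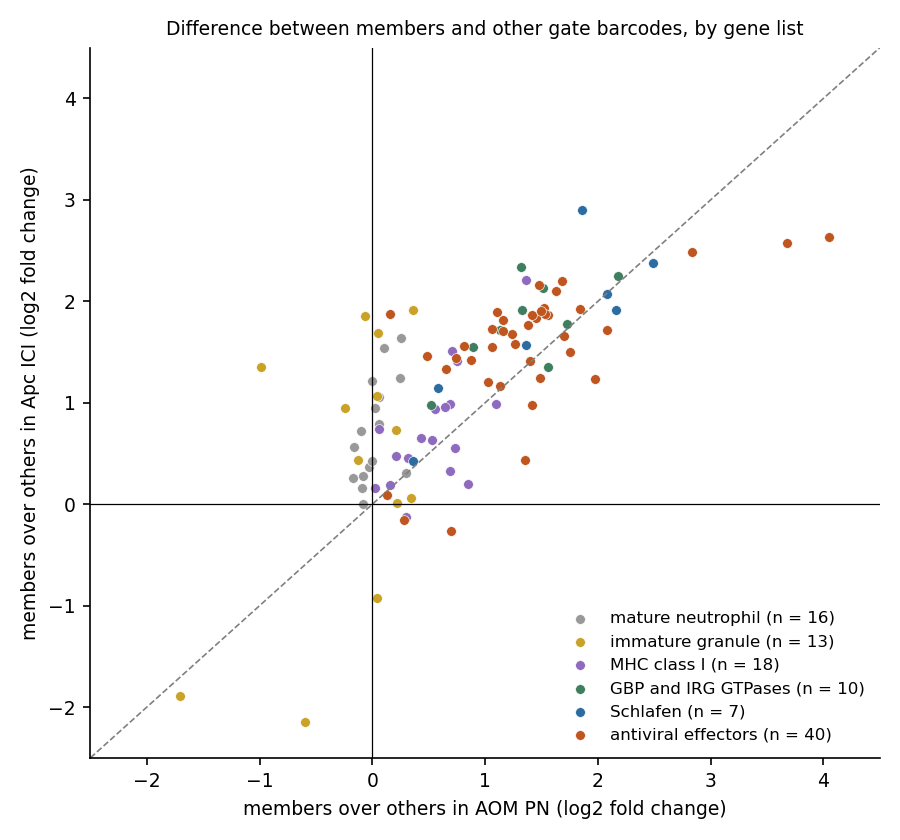
Each point is 1 tested gene, with its log2 fold change of members over others in AOM PN on the horizontal axis and in Apc ICI on the vertical axis, coloured by gene list. Antiviral effectors, Schlafen genes and GTPases lie up and to the right near the dashed line of equal change, whereas the mature neutrophil genes (median -0.00 in AOM PN and 0.64 in Apc ICI) stand in a column near 0 on the horizontal axis.

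Genes whose step from others to members differed between the models were tested directly by the interaction of part and model in 1 edgeR fit. It called 16.6% of 8139 genes, 405 with a higher (4.98%) and 943 with a lower (11.6%) member-against-other difference in AOM PN. The counts were 175 and 584 without AOM PN 2, and 232 were higher without Apc ICI 2. With low-Hmox1 others they were 90 and 362. Isg15 did not pass this test (difference -0.09, SE 0.15, adjusted p = 0.745), nor did Slfn5. Of the 40 antiviral effectors, 4 had a larger step in AOM PN and 8 a smaller one, with a median difference of -0.36, beside -0.01 over all tested genes. The larger ones included Cmpk2 (1.10, SE 0.31) and Ifit3b (1.42, SE 0.36), but with low-Hmox1 others these were -0.99 and -0.22 and not called. Usp18 (0.94) and Cxcl10 (1.11) likewise became -0.35 each. Cmpk2 was also not called without AOM PN 1 (1.03), AOM PN 3 (0.87), Apc ICI 1 (0.84) or Apc ICI 2 (1.11), Ifit3b not without Apc ICI 2 (1.13), and Usp18 not without AOM PN 2 (1.10) or Apc ICI 2 (0.76). Irf7 (-0.58, SE 0.14, adjusted p = 0.00391) and H2-T23 (-0.80, SE 0.15, adjusted p = 4.99e-04) had smaller steps in AOM PN and stayed called with low-Hmox1 others, at -1.35 and -1.26. With Rsad2 left out of the cut, Irf7 was at -0.28 and not called.

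Genes of neutrophil maturity were higher in members in Apc ICI and not in AOM PN. Of 16 genes of mature neutrophils, 13 were higher in Apc ICI members (median 0.64), beside 19.5% of all genes tested. None was called in AOM PN members (median -0.00), where 1.7% of all genes were higher. The interaction test called a smaller step in AOM PN for 12, beside 11.6% of all genes. With low-Hmox1 others 11 were higher in Apc ICI members and 7 had a smaller step in AOM PN. Pglyrp1, which binds bacterial peptidoglycan, had 1736, 684 and 1006 CPM in AOM PN members, against 1614, 657 and 902 CPM in others. In Apc ICI, Pglyrp1 had 587, 622 and 1529 CPM in members, against 186, 199 and 608 CPM in others, a log2 fold change of 1.54 (SE 0.09). Members were above others in all 6 libraries, by small amounts in AOM PN and by wide ones in Apc ICI. The interaction for Pglyrp1 was -1.44 (SE 0.13, adjusted p = 4.73e-07), and -1.23 with low-Hmox1 others.

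Genes of the neutrophil granules and their early stages gave the same split only in part. Of 13 tested, 8 were higher and 3 lower in Apc ICI members, and none was called in AOM PN. Over all genes tested in Apc ICI, 19.5% were higher and 15.6% lower. The 3 lower ones were Chil3, Camp and Ltf, which were 4.43, 3.71 and 1.90 times lower in Apc ICI members. Camp was also 3.27 times lower in AOM PN members, without a call. Retnlg, a resistin-like protein of young neutrophils, had 13572, 2187 and 3462 CPM in AOM PN members, against 12168, 2343 and 4112 CPM in others. In Apc ICI, Retnlg had 2751, 3658 and 10856 CPM in members, against 809, 712 and 3996 CPM in others, a log2 fold change of 1.85 (SE 0.13). Levels of Retnlg spread widely between tumours, but members exceeded others in each Apc ICI tumour and not in AOM PN 2 or 3. Its interaction was -1.92 (SE 0.18, adjusted p = 4.73e-07), and -2.29 with low-Hmox1 others. Mmp8, the neutrophil collagenase, and Anxa1, an inhibitor of inflammation stored in granules, had log2 fold changes of 1.69 and 1.92 in Apc ICI, and interactions of -1.64 (SE 0.17) and -1.56 (SE 0.14). Within AOM PN, Anxa1 was above its others in all 3 libraries (0.36, SE 0.10, adjusted p = 0.078) and became called without Apc ICI 2 (0.36) or 3 (0.36), with RLE factors (0.38), in the depth window (0.49) and at low haemoglobin (0.39). The primary granule enzymes Mpo and Elane, which mark precursors in the bone marrow, averaged under 1 CPM in members and in others. Among 18 genes of activated neutrophils, 7 were higher and 6 lower in Apc ICI members (8 and 4 with low-Hmox1 others), beside the same 19.5% and 15.6% over all genes. In AOM PN members 2, Tnf and Ccl3, were lower. Il1b, an inflammatory cytokine and among the most abundant transcripts of these barcodes, had 21010.2, 17104 and 19216 CPM in AOM PN members, against 20986, 17904 and 21265 CPM in others. In Apc ICI, Il1b had 20448, 31745 and 21711 CPM in members, against 12408, 16275 and 16641 CPM in others, a log2 fold change of 0.69 (SE 0.10). The interaction for Il1b was -0.76 (SE 0.14, adjusted p = 4.98e-04), and it was not called with low-Hmox1 others.

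Genes of hypoxia and glycolysis were lower in Apc ICI members, 8 of 15 with 1 higher, and none was called in AOM PN. Over all genes tested in Apc ICI, 15.6% were lower and 19.5% higher. With low-Hmox1 others 2 were lower and 2 higher in Apc ICI members. The glycolytic enzyme Ldha had a log2 fold change of -0.89 (SE 0.12) in Apc ICI (-0.37 and not called with low-Hmox1 others), the mitophagy gene Bnip3 of -1.27 (SE 0.12) and the lipid droplet gene Hilpda of -1.54 (SE 0.17). Hilpda was at 319.8, 131 and 145 CPM in AOM PN members, against 368, 138 and 170.5 CPM in others. Of the 14 immediate early and heat shock genes, whose transcripts can be raised by tissue dissociation, 5 were higher and 6 lower in Apc ICI members (8 and 1 with low-Hmox1 others), and none was called in AOM PN. The same shares over all genes, 19.5% higher and 15.6% lower in Apc ICI, stand beside these counts. Among called, well-measured genes whose libraries all moved one way, Arg1 (-2.82), Pdcd1lg2 (-2.52) and Lipa (-2.42) had the lowest log2 fold change in Apc ICI members. They encode arginase, the ligand PD-L2 and a lysosomal lipase. Among barcodes between the 10th and 90th percentile of depth Arg1 was at 0.01 and not called. By the same choice of genes, the lowest in AOM PN members were Ccl24 (-1.82), a chemokine for eosinophils, Ltc4s (-1.71), a leukotriene synthase, and Areg (-1.40), a growth factor. Ccl24 was not called without AOM PN 1 (-1.54) or 3 (-1.36), nor Ltc4s without AOM PN 2 (-1.80) or 3 (-1.77). With low-Hmox1 others 1 gene was lower in AOM PN members, Areg (-1.47).

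Compared directly, members of the 2 models differed in 1.21% of 5621 genes, 24 higher (0.427%) and 44 lower (0.783%) in AOM PN (edgeR). Of 37 tested antiviral effectors, 8 were lower in AOM PN members and none higher, with a median log2 fold change of -0.87, beside -0.02 over all genes. With the cut that leaves Rsad2 out, 1 effector was lower and the median was -0.45. Ifi27l2a had the lowest value of the well-measured genes that passed, -2.59 (SE 0.27, adjusted p = 0.00388). Slfn5 was at -1.95 (SE 0.34, adjusted p = 0.0265), Zbp1 at -1.68 (SE 0.29, adjusted p = 0.0265) and Usp18 at -1.99 (SE 0.34, adjusted p = 0.0265). Slfn5 and Usp18 were not called without AOM PN 1 (-1.83 and -1.96), AOM PN 2 (-2.16 and -2.02), AOM PN 3 (-1.90 and -2.001) or Apc ICI 2 (-1.42 and -1.45). Zbp1 had the same losses, at -1.79 to -1.29, as did the PYHIN gene Ifi208. Isg15 (-1.50, adjusted p = 0.052) and Irf7 (-1.38, adjusted p = 0.0506) missed the threshold although their groups did not overlap, and passed it without Apc ICI 3 (-1.65 and -1.59), as did Isg15 without Apc ICI 1 (-1.73). Ifi208 had 0, 2.44 and 0 CPM in AOM PN members, against 21.8, 55.02 and 13.8 CPM in Apc ICI members (adjusted p = 0.0265), so it was nearly absent from AOM PN. The counts moved with single libraries, at 13 higher and 6 lower without AOM PN 2, 15 and 7 without AOM PN 3, 14 and 29 without Apc ICI 1, and 2 and 5 without Apc ICI 2, and 23 were lower without AOM PN 1. With the cut that leaves Rsad2 out, 11 were higher and 8 lower.

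Markers of other cell types moved with this comparison. The mast cell proteases Mcpt2 (4.09, SE 0.76) and Mcpt1 (3.57, SE 0.73) were higher in AOM PN members, and the 8 mast cell and basophil markers summed to 181 to 1894 UPM in AOM PN members, against 30.9 to 81.5 UPM in Apc ICI members. The others of AOM PN held 234 to 2388 UPM, as much as the members. Neither protease was called without AOM PN 1 (Mcpt2 4.03, Mcpt1 3.57), AOM PN 3 (3.33, 2.79), Apc ICI 1 (3.72, 3.16), Apc ICI 2 (4.41, 3.69) or Apc ICI 3 (4.23, 3.95). Of 9 tested monocyte markers, 4 were higher in AOM PN members. Ly6c2, a monocyte surface marker that interferon also raises, was lower (-2.13, SE 0.33), but was not called without AOM PN 2 (-1.93), AOM PN 3 (-1.999) or Apc ICI 2 (-1.79). The 10 monocyte markers summed to 422 to 653 UPM in AOM PN members and 339.6 to 786 UPM in Apc ICI members. Dendritic cell markers summed to 626 to 2437 UPM in AOM PN members and 157 to 637 UPM in Apc ICI members, mostly as Cd74, and epithelial markers to 23.5 to 90.1 UPM in AOM PN members and 100.6 to 166 UPM in Apc ICI members, without overlap. T and NK cell markers summed to at most 21.4 UPM in AOM PN members, and to 151, 28.6 and 18.1 UPM in members of Apc ICI 1, 2 and 3. The high sum of Apc ICI 1 was mostly Gzma, at 99.4 UPM. Macrophage markers summed to 249 to 398 UPM in AOM PN members and 135 to 306 UPM in Apc ICI members. Cpa3, C1qa, Cd3e, Cd79a and Epcam are at 0 in every gate barcode by the rule. The part of these other markers in the results was not tested.

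Red cell transcripts also moved with membership. All 6 erythroid markers were higher in AOM PN members (median 1.58) and 4 of 6 in Apc ICI members (median 0.67), and they summed to 29360.1 to 114385 UPM in AOM PN members, against 4390.4 to 54689.6 UPM in others. In Apc ICI they summed to 73750, 60175 and 221569 UPM in members of libraries 1, 2 and 3, against 83932, 50072 and 125644 UPM in others, so Apc ICI 1 went the other way. Barcodes with over 5% haemoglobin UMIs made up 13.8%, 5.25% and 1.80% of AOM PN members, against 5.47%, 4.07% and 0.387% of AOM PN others. The same share was 4.43%, 3.52% and 13.9% of Apc ICI members, against 8.30%, 3.12% and 11.05% of Apc ICI others. Without any barcode over 5% haemoglobin the antiviral effectors gave the same counts, 31 of 40 in AOM PN and 36 of 40 in Apc ICI, and the share of members was 9.20% in AOM PN and 47.9% in Apc ICI on average. With the cut that leaves Rsad2 out, none of the 6 erythroid markers was called in either model, and the antiviral effectors gave 36 of 41 in each.

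Interferon transcripts themselves were scarce in the neutrophil gate. Ifnb1 (interferon beta) had 37 UMIs among the kept barcodes of AOM PN 2, 34 of them in 1 barcode outside the gate, and 0 to 2 UMIs in each other library, with none in any gate barcode. Ifng (interferon gamma) had 631, 659 and 698 UMIs in AOM PN tumours, against 395, 93 and 49 in Apc ICI tumours. Per 1000 kept barcodes these were 54.05, 74.4 and 54.6 UMIs in AOM PN tumours, against 79.0, 12.7 and 9.38 in Apc ICI tumours, so Apc ICI 1 was the highest library and Apc ICI 2 and 3 the lowest. Most of them, 555, 473 and 630 in AOM PN and 299, 63 and 41 in Apc ICI, were in barcodes with Cd3e. The gate admits no barcode with Cd3e, so the rule itself kept those UMIs out of it. The gate held 3, 4 and 1 UMIs of Ifng in AOM PN and 25, 3 and 1 in Apc ICI. The 25 of Apc ICI 1 lay in 2 gate barcodes, and 24 of them were in members. The cells that made interferon in these tumours cannot be told from these counts.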

How the data were processed

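Single-cell RNA was measured in 6 tumours with droplet-based 3′ libraries. The deposited values are unnormalized UMI counts, 1 matrix a tumour. Cell Ranger 6.1.2 and the build mm10 are named in the submitters' processing notes. The cell-calling rule and the annotation are not given in the sources used here. Members were chosen by the rule in the report from those deposited counts, and features were kept apart by identifier. No doublet caller was run. Mixed barcodes were limited by the 5 exclusion genes alone, and the 5% of barcodes with the most UMIs were left out as an alternative.

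Counts were summed per library over members, over others and over the whole gate. Sums were tested with edgeR 4.0.16 (R 4.3.3; TMM factors, filterByExpr, quasi-likelihood test, Benjamini-Hochberg adjusted p under 0.05), with the library as a block for members against others. The 5 interferon genes and the 17 gate and exclusion genes were kept in library totals and not tested where they chose the members. CPM values use effective library sizes over the 12 sums, and UPM values are unscaled. Shares and summed levels were compared by exact permutation over libraries in Python 3.11.15 (scipy 1.17.1). The fits were tested on simulated data.

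The members and gene lists were chosen with earlier results of these data known. Named genes are the rule genes, the 2 to 4 strongest called genes of a list with some not called, and the 10 highest and 10 lowest called genes of a comparison among well-measured ones whose libraries all moved one way. Others named, such as Slfn4, Irf7 and Cd274, are list members chosen with their values known. A few genes are not reported here. Library totals and depths are given in the report. Alternatives were DESeq2, other scaling factors, no low-count filter, other cuts and depth windows, other reference barcodes, a replicate block and each library left out.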

Additional observations from a re-analysis of the deposited data

Results flagged for a closer look

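For 20 genes the difference between members and others itself differed between the models, by the interaction test in edgeR (adjusted p under 0.05), among the 10 highest and 10 lowest well-measured genes. A larger value in AOM PN (log2 of the AOM PN step minus the Apc ICI step) was seen for Lipa (2.58), Gadd45g (2.36), 1700017B05Rik (2.30), Aph1c (2.11), Ccdc126 (2.09), Mcfd2 (1.96), Tmem140 (1.93), Plekhm2 (1.88), P2rx4 (1.85) and Amdhd2 (1.73). Lipa, a lysosomal lipase, had 23.2, 23.5 and 31.7 CPM in AOM PN members, against 24.2, 21.01 and 23.1 CPM in others, and 25.7, 20.5 and 16.9 CPM in Apc ICI members, against 122, 131 and 71.7 CPM in others. The Apc ICI others thus stood apart for Lipa, and the other 3 groups overlapped. With others limited to fewer than 2 UMIs of Hmox1, Gpnmb, Gdf15 and Nceh1, Lipa (1.79) and 1700017B05Rik (1.26) stayed called, and the remaining 8 were not called.

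A smaller value in AOM PN was seen for Ngp (-2.33), Scnn1a (-2.19), Slc28a2 (-2.05), Pi16 (-2.01), Catip (-1.94), Svip (-1.93), Retnlg (-1.92), Itgb7 (-1.90), Xdh (-1.90) and Bmx (-1.89). All 10 stayed called with low-Hmox1 others, at -2.43 to -1.67. Xdh, the enzyme xanthine dehydrogenase, had 65.4, 34.8 and 31.7 CPM in AOM PN members, against 69.8, 33.7 and 31.02 CPM in others, and 51.9, 53.9 and 83.7 CPM in Apc ICI members, against 16.00, 10.8 and 28.3 CPM in others. Members and others overlapped in AOM PN and were apart in Apc ICI.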

How the results depend on the processing

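The share of members and the summed 5-gene level kept their direction under every setting tried. The difference in share ran from -41.3 to -33.7 percentage points and that in level from -3285 to -1466 UPM when each library was left out, with -1466 UPM where Apc ICI 2 was left out. Genes higher in members over both models numbered 463 with DESeq2, 580 with no low-count filter, 62 with no replicate block (library term dropped), 170 with low-Hmox1 others, 160 with others free of the 5 genes, and 132 to 592 with a library left out. Genes lower numbered 612 with no filter, 3 with no replicate block, 32 with low-Hmox1 others, 67 with others free of the 5 genes, and 22 to 550 with a library left out. Within AOM PN, genes lower numbered 5 with DESeq2, 44 with no filter, 1 with low-Hmox1 others, 18 in the depth window and 2 to 18 with a library left out. Within Apc ICI they numbered 697 with DESeq2, 680 with low-Hmox1 others and 654 to 1392 with a library left out.

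Between models, genes higher and lower in AOM PN members numbered 64 and 81 with DESeq2, 173 and 251 with no filter, 9 and 13 for members of 1000 to 5000 UMIs, and 11 and 8 with Rsad2 left out of the cut. With a cut of 5 UMIs 45 were higher, and leaving out a library gave 2 to 18 and 5 to 60. Over all gate barcodes the counts were 655 and 791 with no filter, 337 higher with DESeq2, and 30 to 267 and 98 to 487 with a library left out. The interaction gave 236 higher with DESeq2, 90 and 362 with low-Hmox1 others, and 175 to 482 and 584 to 1043 with a library left out. The cause of these shifts was not tested. Leaving out libraries or barcodes also makes the samples smaller, and that part was not tested either.

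Replicate numbers are shared by the models, but same-numbered tumours did not deviate together (correlations of members' deviations -0.23, 0.20 and -0.14), so the numbers were not taken as pairs. With the number as a replicate block, 24 genes were higher and 41 lower in AOM PN members and 163 and 342 over the gate, the share differed by -38.3 percentage points and the level by -2597 UPM (exact p = 0.25 each, the smallest that 3 pairs allow).

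Of 3294 values of single genes under alternatives, 11 had the opposite sign where the main or the alternative value was called, since an estimate that missed the threshold under both settings was given no direction. With low-Hmox1 others these were the interactions of Cmpk2 (-0.99), Cxcl10 (-0.35), Ifit3b (-0.22) and Usp18 (-0.35) and the Apc ICI values of Ccl3 (0.12) and Cd274 (0.55). With others free of the 5 genes they were the interactions of Cmpk2 (-2.99), Ifit3b (-0.85) and Usp18 (-0.11). S100a10 was at -1.05 between models in members of 1000 to 5000 UMIs, and Arg1 at 0.00954 in Apc ICI in the depth window. Low counts per barcode, with a median of 5 or 6 UMIs of the 5 genes in AOM PN members, limit how well a single barcode is placed on either side of the cut.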
